A study of Mus musculus with 8 samples.

Results

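Open chromatin of basal transit amplifying cells (basal TACs), the dividing cells of the growing hair follicle that stay attached to its basement membrane, was compared with that of the hair germ, the small cell cluster at the base of the resting follicle. The comparison covers 4 of the 8 samples of an ATAC-seq study of mouse back skin, with 2 samples a population. Each population has 1 list of peaks (stretches of DNA opened to the transposase), made from both of its samples together. Overlapping peaks of the basal TAC and hair germ lists were merged into 89506 sites, of 114956 sites over all 4 lists. Chromosomes M and Y were left out.

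The basal TACs were sorted at P30, in anagen, as cells without green fluorescent protein (GFP), CD34 and SCA1 but with P-cadherin and a high level of integrin beta 1. The hair germ cells were sorted at P55, in the second telogen, as GFP-positive cells with integrins alpha 6 and beta 1 and without CD34. Both came from mice of mixed sex that carry Lgr5-eGFP-ires-CreER, an allele in which the stem cell gene Lgr5 drives GFP. Cell type, hair cycle stage, age and sort gate therefore differ together and cannot be told apart. The other lists of the study are suprabasal TACs at P30, from K14-H2BGFP mice, and bulge stem cells at P55, from the Lgr5 strain. With 1 pooled list a population there is no spread between animals, no test and no p-value, and the intervals below cover counting error only.

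The hair follicle grows in anagen and rests in telogen. In telogen the hair germ sits between the bulge, which holds slow-cycling stem cells, and the dermal papilla, and it is the first epithelium to divide when WNT signals start a new cycle. In anagen its descendants form the matrix, where TACs around the dermal papilla divide a limited number of times and give rise to the inner root sheath and the hair shaft. ATAC-seq cuts DNA where nucleosomes leave it open, mostly at promoters and enhancers.

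The basal TAC list rested on 30824845 sequenced fragments and the hair germ list on 11053351, so the basal TAC list was 2.79 times deeper. The height of a peak is its pileup, the number of fragments that overlap at its summit. It was scaled to 1000000 fragments in the list, a unit written FPM below. The lowest pileup in the list was 12 in basal TACs and 6 in the hair germ, or 0.389 FPM in basal TACs and 0.543 FPM in the hair germ, so the absence of a peak is not a signal of 0. A one-list site was called depth-supported when its scaled pileup was at least 2 times the 10th percentile of the other list, which is 1.81 FPM for sites of the basal TAC list and 1.36 FPM for sites of the hair germ list. Fragments amplified without molecular identifiers are not independent molecules.

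Promoters of 4 genes whose start sites stood far apart between the populations are shown from RefSeq (GRCm38.p6), as the 250 bases before the start, 5′ to 3′ on the gene's strand. Fgf5 and Padi3 had a start-site peak in basal TACs alone, Lrrc31 had one in the hair germ alone, and Hrh1 had the highest basal TAC to hair germ ratio among shared sites at a start in the table. Fgf5 encodes the growth factor that ends anagen, and its promoter is at chr5:98253934-98254183 on the plus strand. Padi3 encodes an enzyme that converts arginines to citrullines in hair proteins such as trichohyalin, and its promoter is at chr4:140810649-140810898 on the minus strand. Hrh1 encodes the histamine H1 receptor, with its promoter at chr6:114458272-114458521 on the plus strand. The promoter of Lrrc31, a leucine-rich repeat gene, is at chr3:30699844-30700093 on the minus strand. Capitals mark matches to the motif letters given in the next paragraph.
Fgf5: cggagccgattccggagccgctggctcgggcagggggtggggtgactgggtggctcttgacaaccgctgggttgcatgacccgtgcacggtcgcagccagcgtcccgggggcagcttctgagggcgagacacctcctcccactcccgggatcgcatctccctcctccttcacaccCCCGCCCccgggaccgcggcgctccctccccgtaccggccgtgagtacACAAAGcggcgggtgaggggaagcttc
Padi3: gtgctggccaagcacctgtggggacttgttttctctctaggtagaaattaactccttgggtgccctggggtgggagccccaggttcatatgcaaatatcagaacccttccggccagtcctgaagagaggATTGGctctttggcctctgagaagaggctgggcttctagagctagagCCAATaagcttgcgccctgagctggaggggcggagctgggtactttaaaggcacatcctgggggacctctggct
Hrh1: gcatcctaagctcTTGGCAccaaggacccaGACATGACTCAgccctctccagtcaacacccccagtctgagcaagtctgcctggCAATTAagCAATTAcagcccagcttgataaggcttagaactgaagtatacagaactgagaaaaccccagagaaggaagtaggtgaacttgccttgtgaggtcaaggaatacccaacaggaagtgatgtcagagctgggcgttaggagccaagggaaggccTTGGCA
Lrrc31: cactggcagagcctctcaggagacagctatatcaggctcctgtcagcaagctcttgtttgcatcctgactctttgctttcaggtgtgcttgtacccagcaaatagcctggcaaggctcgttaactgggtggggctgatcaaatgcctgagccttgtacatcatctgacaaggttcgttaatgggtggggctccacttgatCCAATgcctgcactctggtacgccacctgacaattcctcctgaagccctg

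The letters searched on both strands were CTTTGAT or CTTTGAA for TCF/LEF, TGTGGTT for RUNX, TGANTCA for AP-1, AGATAA for GATA factors, TTGGCA for an NFI site and CAATTA for MSX. They were TAATTA for LHX, ACAATG or ACAAAG for SOX, TTGGCGC or TTCCCGC for E2F, GTAAACA for FOX, GGGCGTG or GGGCGGG for KLF/SP, CATGTC for a p63 site, TGGAAA for NFAT, CCAAT for the CCAAT box and GGAATG for TEAD. Fgf5 held KLF/SP letters at -75 and SOX letters at -27 from the start, in a sequence with 24 CpG dinucleotides. Padi3 held CCAAT letters at -121 and -74 and 3 CpG. Hrh1 held NFI letters at -237 and -6, MSX letters at -166 and -158, and p63 letters at -220 that overlap AP-1 letters at -216. Lrrc31 held CCAAT letters at -50 and 3 CpG. These letters are common: over 21045 start sites in the table, 39.1% held the KLF/SP letters, 25.2% SOX, 38.5% CCAAT, 13.1% NFI, 6.85% MSX, 8.48% p63 and 7.04% AP-1. These shares and those of the next paragraph cover 250 bases before and 50 bases after the start. The sequences shown lack the 50 bases after it.

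Start sites with a depth-supported peak in 1 list were poorer in CpG than start sites with a peak in both. The median was 3.33 CpG per 100 bases at 116 basal TAC start sites and 3.33 at 206 hair germ start sites, against 7.33 at 9539 shared start sites and 4.33 over the whole table. The KLF/SP letters stood in 37.1% of basal TAC, 37.4% of hair germ and 58.3% of shared start sites. The MSX letters stood in 10.3% of the basal TAC start sites (95% Wilson interval 6.02 to 17.2), against 3.40% of the hair germ ones (1.66 to 6.85). MSX is 1 of 15 motifs searched, named after its values were seen, and the shares were not tested. At shared start sites the order was the other way, with 4.58% of those at least 2-fold higher in basal TACs and 5.84% of those at least 2-fold lower.

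Of the 89506 sites, 33987 (38.0%) were held only by the basal TAC list, 41411 by both lists and 14108 (15.8%) only by the hair germ list. The basal TAC list is also the deeper one. After the depth floor, 8539 sites (9.54%) stood in basal TACs only and 7876 (8.80%) in the hair germ only, so that basal TACs held 70.7% of all one-list sites but 52.0% of the depth-supported ones. That share depends on the scaling: with pileups centred on the median of all shared sites, the depth-supported counts were 14463 in basal TACs and 5368 in the hair germ, or 72.9% in basal TACs. Centred on shared sites near gene ends they were 16603 in basal TACs and 4760 in the hair germ. Stricter settings turned the balance. Peaks past a −log10 q-value of 10 left 2633 depth-supported sites in basal TACs and 5412 in the hair germ, and a floor at 2 times the other list's median left 411 in basal TACs and 2222 in the hair germ. One-list sites were shorter and lower than shared ones. Their median length was 503 bp in the basal TAC list and 435 bp in the hair germ list, against 1009 bp for sites in both.

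At the 41411 shared sites, the median scaled pileup was 2.56 FPM in basal TACs and 3.35 in the hair germ, and the median log2 ratio of basal TAC over hair germ was -0.50. Measured instead as fold enrichment over the local background of the same list, the median log2 ratio was -0.04. Without a control library this background comes from the same fragments as the peaks. At the shared sites of most extreme ratio, which were picked by their pileups, it was higher in the population with the taller peak. Other shared sites were not checked for this. Fold enrichment and pileup are thus not independent measures, and at those extreme sites fold enrichment gave the smaller difference. Where a fold-enrichment ratio below is near 0 or of opposite sign, both values are given. Which measure lies nearer to the true difference was not tested. The general shift of -0.50 was subtracted from each ratio to give a relative ratio, and site and gene ratios below are relative unless called unshifted. By relative ratio, 6262 shared sites (15.1%) were at least 2-fold higher and 4157 (10.0%) at least 2-fold lower in basal TACs. Before the subtraction these counts were 3194 (7.71%) higher and 9980 (24.1%) lower, and by fold enrichment they were 1601 higher and 1740 lower in basal TACs. In bulk libraries such as these, fewer cells with an open site and a smaller opening in each cell cannot be told apart.

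Distance from gene starts separated the classes. Of 10843 sites within 1 kb of a start site, 88.8% were in both lists, 7.91% in basal TACs only and 3.24% in the hair germ only. Of 23916 sites more than 100 kb away, 36.7% were shared, 44.1% were in basal TACs only and 19.2% in the hair germ only. Shared sites more than 2-fold off the median were likewise rarer at starts: 3.62% were higher and 4.31% lower within 1 kb, against 19.6% higher and 14.3% lower beyond 100 kb. The median relative ratio was -0.15 within 1 kb of a start and 0.09 farther out. Shared sites near a start were also taller, with medians of 4.25 FPM in basal TACs and 6.69 in the hair germ. Farther out the medians were 2.17 in basal TACs and 2.71 in the hair germ. Lower peaks are more easily missed in a list, and the part of peak height in this contrast was not tested. By called peaks, basal TACs and the hair germ thus shared most start-site peaks and a smaller share of distal ones.

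**Figure D1:**
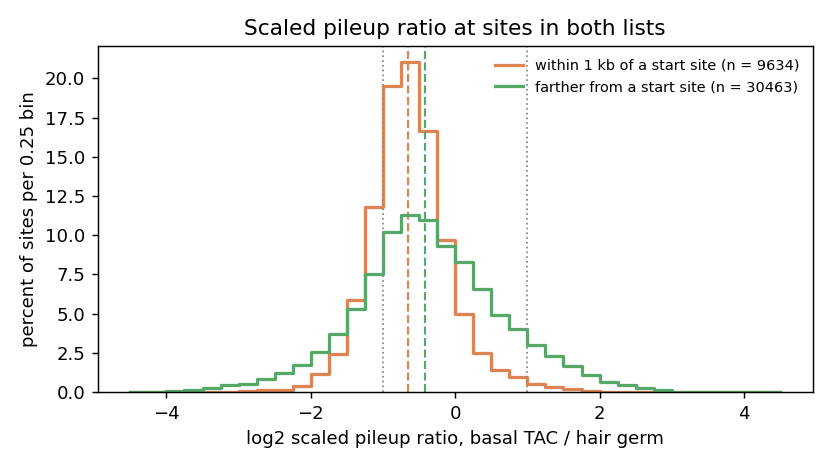
Percent of shared sites (vertical axis) by log2 ratio of scaled pileup, basal TAC over hair germ (horizontal axis), for sites within 1 kb of a start site and for sites farther away. Dashed lines are the medians, -0.65 near starts and -0.41 farther out before the general shift is subtracted, and the distal sites spread more widely.

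The study's other populations held these sites unequally. Depth-supported sites of the basal TAC list had a suprabasal TAC peak in 54.4% of cases and a bulge stem cell peak in 17.4%. Those of the hair germ list had a suprabasal TAC peak in 24.9% and a bulge peak in 87.9%. Over all sites the shares were 59.7% for the bulge and 58.0% for suprabasal TACs. Over all shared sites they were 91.8% for the bulge and 81.1% for suprabasal TACs. Sites open in the hair germ and not called in basal TACs were thus mostly open in the other telogen population. At shared sites at least 2-fold lower in basal TACs by relative ratio, 98.4% had a bulge peak, and the median scaled pileups were 1.23 in basal TACs, 5.61 in the hair germ and 6.07 in the bulge. At those at least 2-fold higher, 77.9% had a bulge peak and 76.8% a suprabasal TAC peak, both below the shares of all shared sites. The medians there were 3.24 in basal TACs, 1.36 in the hair germ, 1.45 in the bulge and 1.44 in suprabasal TACs. Medians of the bulge and suprabasal TACs cover only the sites with such a peak.

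**Figure D2:**
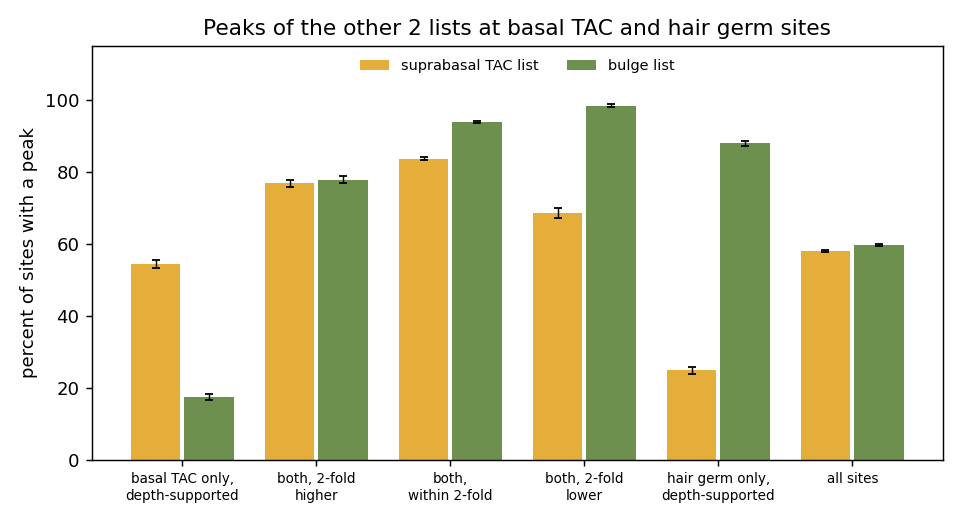
Percent of sites (with 95% Wilson intervals) that also had a peak in the suprabasal TAC list and in the bulge list, for 6 classes of sites of the basal TAC and hair germ lists. Bulge peaks stood at 17.4% of depth-supported basal TAC sites and at 87.9% of depth-supported hair germ sites.

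Sites were assigned to the nearest gene within 100 kb, which need not be the gene they act on. The shared site with the highest ratio lay 37537 bp from Grin2a, a glutamate receptor subunit, at chr16:10033093-10034147 (mm10). Its pileup was 307 in basal TACs and 7 in the hair germ, or 9.96 FPM in basal TACs and 0.633 in the hair germ, with no bulge peak and 1.76 FPM in suprabasal TACs. The unshifted log2 ratio was 3.98 (95% interval 2.91 to 5.30). The Hrh1 start site shown above, at chr6:114457497-114458914, had 7.62 FPM in basal TACs and 0.633 in the hair germ, with no peak in the bulge. Next to Grin2a and Hrh1, the 10 shared sites of highest ratio included ones nearest to Syn3, Fem1c, Asns, Itga1, Brinp2, Gsr and Dnajb13, and 7 of the 10 had no bulge peak. At the other extreme, a site 30751 bp from Ednra, an endothelin receptor, at chr8:77754657-77755750, had a pileup of 16 in basal TACs and 197 in the hair germ, or 0.519 FPM in basal TACs and 17.8 in the hair germ. Its unshifted log2 ratio was -5.10 (-5.94 to -4.37), and the bulge had 19.3 FPM there. The 10 shared sites of lowest ratio, among them ones nearest to Creb5, Tenm3, Snx4, Fhit, Tnfrsf11b and Ptpro, all had bulge peaks. Of all shared sites, 91.8% had a bulge peak.

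The tallest sites called in 1 list only reached 26.9 FPM in basal TACs and 19.99 in the hair germ. In basal TACs they included a site 17795 bp from Kif11, a mitotic spindle motor, with 11.3 FPM and no peak in either the bulge or suprabasal TACs. One 36014 bp from Mat2a, which makes the methyl donor S-adenosylmethionine, had 10.5 FPM. The bulge had 2.29 and suprabasal TACs had 1.90 FPM at the Mat2a site, which lay 1036 bp from a hair germ peak. The highest of all, 26.9 and 23.6 FPM, lay inside Sfi1, a centrosomal gene, 1145 and 1124 bp from a hair germ peak. They stood on a local background of 5.46 and 5.69 FPM, against 0.884 at the Kif11 site and 1.01 at the Mat2a site. In the hair germ the tallest were 19.99 FPM inside Bok, a BCL2 family gene, and 19.7 inside Grik1, a glutamate receptor gene. The bulge had 26.5 and 21.4 FPM at these sites, and all 10 tallest hair germ sites had a bulge peak. The Bok site lay 833 bp from a basal TAC peak.

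Start sites in 1 list only were few. Depth-supported basal TAC sites lay within 1 kb of a start in 1.42% of cases and hair germ ones in 2.75%. The tallest in basal TACs were those of Pla2g2e (7.36 FPM), a secreted phospholipase, of Vsig8 (6.78) and of Padi3 (6.36). Suprabasal TACs had 5.54 FPM at the Pla2g2e site, 2.09 at the Vsig8 site and 2.61 at the Padi3 site. The Vsig8 site had 6.03 FPM in the bulge and lay 695 bp from a hair germ peak. The Fgf5 start had 4.41 FPM in basal TACs and 0.794 in suprabasal TACs, and the nearest hair germ peak was 66727 bp away. Other basal TAC start sites were those of Tmem53, Shc1, Il11ra1, Tnfaip2, Prss21 and Gm39572, but the Tmem53 site lay 258 bp from a hair germ peak. In the hair germ the tallest were Cyp2b10 (9.23), a cytochrome P450, Lrrc31 (8.23, with 13.0 in the bulge) and Zfp367 (8.23). Those of Zfp367, Dhrs3, Bcar1, Sp4 and Bmi1 lay 251 to 437 bp from a basal TAC peak, whereas that of Irx4, a homeobox gene, lay 1964 bp away.

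Fgf5 was the clearest gene of the basal TAC list. All of its 11 sites, from -25.2 kb (upstream) to 47.5 kb from the start, were called in basal TACs and none in the hair germ or the bulge. Their pileups were 34, 137, 136, 22, 39, 83, 18, 157, 131, 104 and 155, or 0.584 to 5.09 FPM, and 7 were depth-supported. Suprabasal TACs had peaks at the start and at sites 29.7 to 47.5 kb downstream, none above 1.13 FPM. Genes with every site in 1 list numbered 1370 for basal TACs and 313 for the hair germ. With at least 5 sites they numbered 46 for basal TACs and 1, Gmnc, for the hair germ. Among the 46 were Adamts16, Dio3, Igf1, Alpl, Padi3 and Pparg, but 9 of the 12 sites of Adamts16 and 8 of the 12 of Dio3 were not depth-supported. These counts lean to the deeper list.

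Counted over depth-supported sites, the basal TAC end was led by Tln2, which encodes talin 2, a link from integrins to actin. It had 14 such sites in basal TACs and 0 in the hair germ, up to 5.48 FPM. Klhl6 had 9 in basal TACs and 0 in the hair germ, with 5.81 FPM 36.3 kb inside the gene, and a shared site 14.4 kb upstream with 4.70 in basal TACs and 1.09 in the hair germ. Within 20 kb of Klhl6 the difference was 4 sites. Also at this end were Sfi1 (11 in basal TACs, 0 in the hair germ), Cacna2d3 (14 in basal TACs, 3 in the hair germ), Slit3 (15 in basal TACs, 7 in the hair germ) and Fgf5. So were 1700025G04Rik and Lhfp, each with 8 in basal TACs and 0 in the hair germ, and Ankrd55 and Pakap, each with 10 in basal TACs and 2 in the hair germ. The hair germ end was led by Itprid2, with 0 in basal TACs and 12 in the hair germ. Of those 12 hair germ sites, 11 also had a bulge peak, and within 20 kb of Itprid2 the difference was -6. Aff1, of a family that promotes transcript elongation, had 0 in basal TACs and 11 in the hair germ. Fbxo16, an F-box gene, had 0 in basal TACs and 8 in the hair germ, with its tallest at 12.8 FPM in the hair germ and 14.3 in the bulge. The others were Gmds, Ptprg, Enox1 and Palld (1 each in basal TACs, 10 each in the hair germ), Nfatc1 and Macf1 (1 each in basal TACs, 9 each in the hair germ) and Myo1e (0 in basal TACs, 8 in the hair germ). Aff1 shows that the counts and the ratios can part: its 15 shared sites had a median relative ratio of 0.13 (-0.37 unshifted).

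Among genes with at least 5 shared sites, Gsr, glutathione reductase, had the highest median relative ratio, 3.28. Its scaled pileups were 9.64, 7.46, 6.59, 5.84 and 5.29 FPM in basal TACs, against 1.18, 1.09, 0.633, 1.27 and 7.69 in the hair germ. Basal TACs were higher at 4 of the 5 sites, and the site at the gene's end was lower. Thbs2, the matrix protein thrombospondin 2, followed at 2.04, with 4.09 in basal TACs and 2.62 in the hair germ at its start. Adamts20, a secreted metalloprotease, had 2.02, and Vwa8, Snap91, Dtnb, Pamr1, Cryl1, Lrrc8c and Smtn had 1.71 to 1.99. By fold enrichment over the local background the medians were smaller: Gsr had 0.65, Thbs2 1.11, Snap91 1.12, Pamr1 0.86, Adamts20 0.75, Dtnb 0.42, Lrrc8c 0.21, Vwa8 0.12 and Smtn 0.08, and Cryl1 turned to -0.20. With sites assigned only within 20 kb, Thbs2 had 1.10, Dtnb 1.14 and Smtn 0.69 by relative ratio.

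The lowest medians were those of Ranbp9 (-1.77), Fhl1 (-1.66), Calm2 (-1.57), Hmga2 (-1.56), Scube2 (-1.54), Ptgfr (-1.53), Perp (-1.50), Nr1h4 (-1.47), Palmd (-1.44) and Nfatc1 (-1.43). By fold enrichment these medians lay closer to 0: Ptgfr had -0.56, Nr1h4 -0.30, Calm2 -0.28, Ranbp9 -0.24, Perp -0.15, Palmd and Nfatc1 -0.11, Scube2 -0.06 and Hmga2 -0.03, and Fhl1 turned to 0.03. Within 20 kb of the gene alone, Ranbp9 had -0.98 and Calm2 -0.82 by relative ratio. Hmga2, a DNA-bending chromatin protein of growing tissues, had 3.08 FPM in basal TACs and 12.8 in the hair germ at its tallest site, 53.9 kb inside the gene. Only the site 47.5 kb inside had a relative ratio above 0, with 4.996 in basal TACs and 5.34 in the hair germ. Perp, a p63 target of desmosomes, had 7.14 FPM in basal TACs and 16.3 in the hair germ at its tallest. Ptgfr, the prostaglandin F receptor, was below 0 at all 5 of its shared sites and had 1.33 in basal TACs and 9.32 in the hair germ at the lowest. Scube2 helps release hedgehog ligands from the cells that make them.

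**Figure D3:**
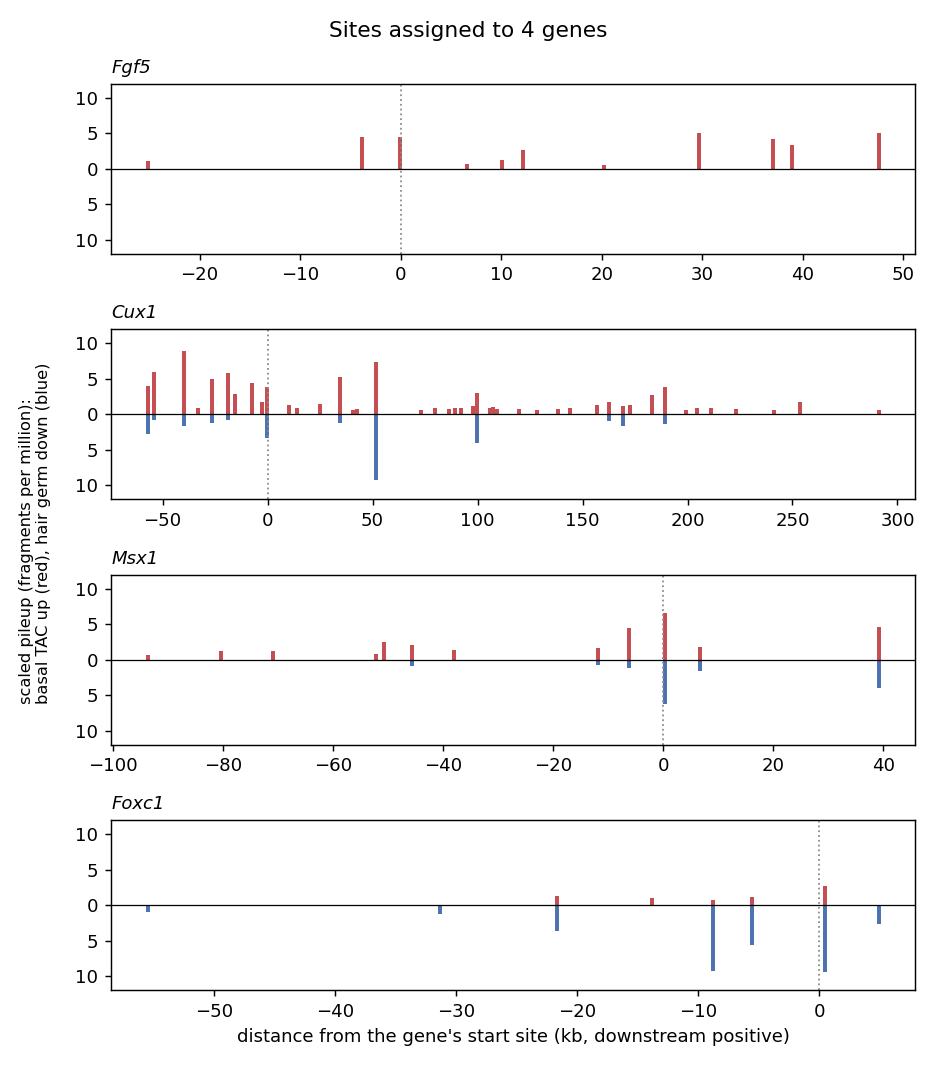
Scaled pileup in FPM at the sites of Fgf5, Cux1, Msx1 and Foxc1 by distance from the start site in kb, with basal TAC bars upward and hair germ bars downward. Fgf5 has bars upward only, whereas the Foxc1 sites reach at most 2.69 in basal TACs and 9.41 in the hair germ.

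The 21 telogen stem cell genes, known from bulge and hair germ, stood lower in basal TACs by site counts and by pileup ratio, but not by fold enrichment. They had 19 depth-supported sites in basal TACs and 68 in the hair germ, so that 21.8% were basal TAC sites, against 52.0% over all sites. With pileups centred on all shared sites the counts were 48 in basal TACs and 54 in the hair germ, or 47.1% in basal TACs, against 72.9% over all sites. More hair germ than basal TAC sites were supported in 17 of the 21 genes. The median relative ratio of their 188 shared sites was -0.27 (95% interval -0.47 to -0.11; -0.77 unshifted), but -0.01 by fold enrichment. At least 2-fold lower were 21.3% of these sites and at least 2-fold higher 7.98%, against 10.0% and 15.1% of all shared sites. Start-site peaks did not separate the populations, with 12 in basal TACs and 13 in the hair germ of 13 genes that have a start site in the table. The direction was not particular to this list. The 14 widely expressed genes had 0 depth-supported sites in basal TACs and 9 in the hair germ (22.2% in basal TACs with centred pileups). Their median was -0.22, although only 11.8% of their shared sites were at least 2-fold lower. The adhesion and basement membrane genes had a median of -0.20.

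Nfatc1, the transcription factor that keeps bulge stem cells quiescent, was lower in basal TACs at all 10 shared sites. Its tallest sites had 3.44 and 1.07 FPM in basal TACs, against 14.1 and 12.5 in the hair germ. It had 6 further sites in basal TACs only, 1 of them depth-supported, and 11 in the hair germ only, 9 of them depth-supported and all with a bulge peak. Foxc1, a forkhead factor needed to hold stem cells in quiescence, had 2.69 in basal TACs and 9.41 in the hair germ at its start. At -8.80 kb, upstream of that start, Foxc1 had 0.746 in basal TACs and 9.32 in the hair germ, and at -5.55 kb it had 1.17 in basal TACs and 5.61 in the hair germ. Sfrp1, a secreted WNT inhibitor, had 2.73 in basal TACs and 14.6 in the hair germ at its tallest, and 5 of its 6 shared sites were below 0 by relative ratio. The remaining Sfrp1 site had 1.36 in each population. By fold enrichment the medians of these genes were small, at -0.11 for Nfatc1, -0.29 for Foxc1 and -0.01 for Sfrp1.

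Fst, the activin and BMP antagonist follistatin, had 0 sites in basal TACs only and 6 in the hair germ only, with 1.52 in basal TACs and 7.69 in the hair germ at its tallest shared site and a fold-enrichment median of -0.16. Sox9, a stem cell and outer root sheath factor, had 0 depth-supported sites in basal TACs and 5 in the hair germ. Col17a1, a hemidesmosome collagen, had a median of -0.69 that turned to 0.33 by fold enrichment. Lhx2, a stem cell homeobox factor, had 0 depth-supported sites in basal TACs and 4 in the hair germ. Tcf7l1, a repressor of WNT targets, had 3 in basal TACs and 1 in the hair germ, against the direction of most of the list.

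The 13 hair germ genes did not stand as low in basal TACs as the stem cell genes did. They had 23 depth-supported sites in basal TACs and 24 in the hair germ, or 48.9% in basal TACs against 52.0% over all sites. With centred pileups they had 35 in basal TACs and 18 in the hair germ, or 66.0% against 72.9%. Their median relative ratio was 0.11, with -0.40 unshifted and 0.00 by fold enrichment. Lef1, Msx2, Cux1 and Runx1 are also among the matrix factors below. Without Cux1, which had the most one-list sites, the counts were 20 in basal TACs and 24 in the hair germ and the median was 0.06. Lgr5, whose promoter drives the GFP that the hair germ was sorted for and the basal TACs were sorted without, kept 11 shared sites. The tallest had 9.73, 7.75, 6.46 and 6.10 FPM in basal TACs, against 10.2, 6.24, 11.5 and 10.6 in the hair germ. Its median relative ratio was 0.06. Of the 11, 2 were at least 2-fold lower, 1 of them with 1.17 in basal TACs and 6.69 in the hair germ, and 1 was at least 2-fold higher. Lgr5 also had 1 depth-supported site in basal TACs and 4 in the hair germ. Cells sorted without the Lgr5-driven GFP thus still had peaks at Lgr5. Sox4, a progenitor factor of the same list, had 4 depth-supported sites in basal TACs and 0 in the hair germ. At 36.1 kb downstream of its start it had 9.44 in basal TACs and 3.26 in the hair germ, whereas at its start it had 8.79 in basal TACs and 11.0 in the hair germ.

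**Figure D4:**
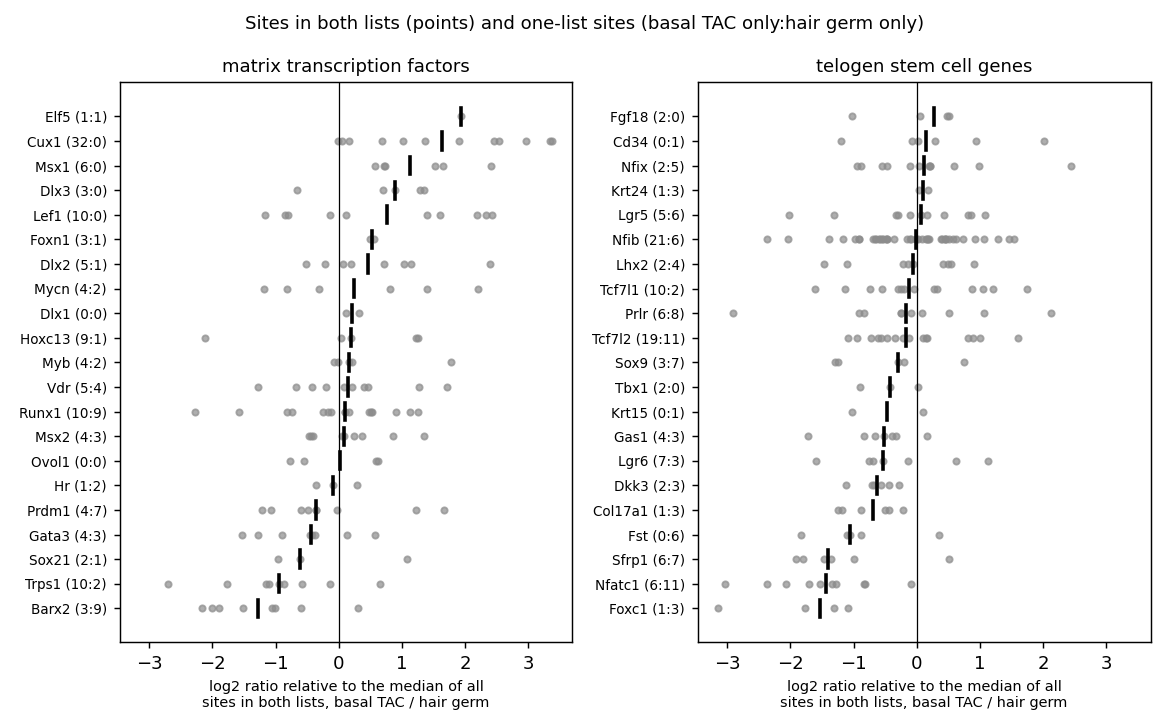
Relative log2 ratio of scaled pileup, basal TAC over hair germ (horizontal axis), at each shared site of 21 matrix transcription factors and 21 telogen stem cell genes, with bars at the medians. Numbers beside each gene are its sites in basal TACs only and in the hair germ only, and the genes run from Elf5 (1 shared site, 1.94) to Foxc1 at -1.53.

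The 21 matrix transcription factors, which direct hair shaft and root sheath fates, split among themselves. They had 31 depth-supported sites in basal TACs and 34 in the hair germ, or 47.7% in basal TACs, near the 52.0% of all sites. With centred pileups the order of the counts turned, to 50 in basal TACs and 27 in the hair germ, or 64.9% against 72.9%. Their median relative ratio was 0.12 (-0.07 to 0.31), with -0.39 unshifted and -0.04 by fold enrichment. Both tails were wider than over all sites: 24.8% of their shared sites were at least 2-fold higher and 14.2% at least 2-fold lower. Start-site peaks numbered 14 in basal TACs and 13 in the hair germ, of 15 genes.

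Cux1, a homeobox repressor of the root sheath and matrix, had 32 sites in basal TACs only and 0 in the hair germ only, but 29 of the 32 were not depth-supported. At its start the populations were close, with 3.80 FPM in basal TACs and 3.35 in the hair germ. Upstream they parted: at -18.9, -26.3, -40.0 and -53.9 kb basal TACs had 5.84, 4.90, 8.95 and 5.97 FPM, where the hair germ had 0.814, 1.27, 1.63 and 0.814. None of these 4 sites had a bulge peak. The median relative ratio of Cux1 was 1.64, but 0.10 by fold enrichment. Msx1, a homeobox factor of the matrix, repeated that form, with 6.55 in basal TACs and 6.24 in the hair germ at its start but 4.41 in basal TACs and 1.18 in the hair germ at -6.12 kb, and all of its 6 shared sites were above 0 by relative ratio (median 1.13; 0.67 by fold enrichment).

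Lef1, the WNT-responsive factor of the matrix and precortex, had 10 sites in basal TACs only and 0 in the hair germ only, and a median relative ratio of 0.76, which was 0.08 by fold enrichment. Of those 10, 3 were depth-supported. Its sites did not differ in one direction. At 58.1 kb it had 4.44 in basal TACs and 1.18 in the hair germ, and at 25.8 kb 4.80 in basal TACs and 1.36 in the hair germ. At 1.12 kb from its start, by contrast, it had 2.56 in basal TACs and 6.51 in the hair germ. Dlx3, a hair shaft homeobox factor, had a median of 0.90 (0.06 by fold enrichment), and the only shared site of Elf5 had 1.94 (0.51 by fold enrichment). Trps1 and Gata3 lay on the other side. Trps1, a GATA-type repressor, had a median of -0.94 (-0.67 by fold enrichment) and 0.908 FPM in basal TACs and 8.41 in the hair germ at its lowest site. Gata3, the inner root sheath factor, had -0.43 (-0.04 by fold enrichment), with 8.50 in basal TACs and 15.6 in the hair germ at its start.

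**Figure D5:**
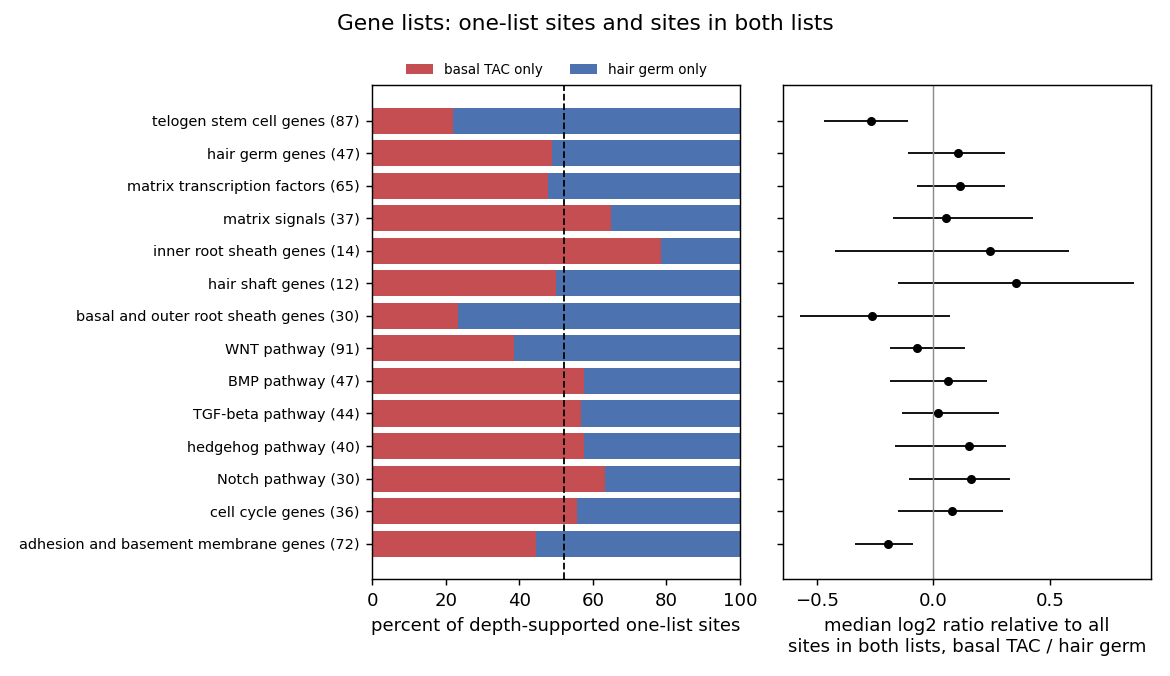
For 14 gene lists, the percent of depth-supported one-list sites in basal TACs (red) and in the hair germ (blue, left, number of sites in brackets, dashed line at 52.0 for all sites) and the median relative log2 ratio at shared sites (right, 95% order-statistic intervals). Telogen stem cell genes lie left of both lines, although their ratio by fold enrichment was -0.01.

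Genes of the inner root sheath, a layer that matrix cells produce, had few sites. The 11 genes had 11 depth-supported sites in basal TACs and 3 in the hair germ, or 78.6% in basal TACs against 52.0% over all sites (88.2% against 72.9% with centred pileups). Of the 11, 5 were those of Padi3, and 6 of the 11 genes had equal numbers in both. They had start-site peaks at 7 genes in basal TACs and 4 in the hair germ. Their 18 shared sites had a median of 0.24 (-0.42 to 0.58; -0.26 unshifted; 0.09 by fold enrichment). Padi3 had 6 sites, all called in basal TACs and not in the hair germ, at 1.36 to 6.36 FPM, and none in the bulge. Suprabasal TACs had a peak of 2.61 FPM at its start. Tchh, trichohyalin, had basal TAC sites of 1.91, 2.43, 2.01 and 1.27 and a shared site at the gene with 4.96 in basal TACs and 7.42 in the hair germ. Tgm3, a transglutaminase that crosslinks it, had a start-site peak in basal TACs only (2.89) and, 15.7 kb inside, 7.04 in basal TACs and 1.54 in the hair germ. The keratin genes followed at lower heights: Krt25 had 2.95 in basal TACs and 0.905 in the hair germ at its start, Krt27 had 4.64 in basal TACs and 1.18 in the hair germ within its body, and the starts of Krt28 (2.34) and Krt71 (0.908) were called in basal TACs only.

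Hair shaft genes, of which 13 of 16 had a site, had 6 depth-supported sites in each population, or 50.0% against 52.0% over all sites. Krt75, a keratin of the companion layer, belongs to the basal and outer root sheath list. Against that list's direction, it had 5.13 in basal TACs and 1.18 in the hair germ at its start. The basal and outer root sheath genes had 7 depth-supported sites in basal TACs and 23 in the hair germ, or 23.3% in basal TACs against 52.0% over all sites. With centred pileups they had 17 in basal TACs and 18 in the hair germ, or 48.6% against 72.9%. Of their 49 shared sites 28.6% were at least 2-fold lower and 6.12% at least 2-fold higher, and the median was -0.26 (-0.57 to 0.07; -0.76 unshifted; -0.05 by fold enrichment). Krt15, a keratin of bulge cells, had 0.876 and 4.38 in basal TACs at its shared sites and 2.53 and 5.79 in the hair germ. Barx2, a homeobox factor that is also among the matrix factors, had 0 depth-supported sites in basal TACs and 7 in the hair germ, with 2.53 in basal TACs and 13.4 in the hair germ at its tallest shared site. Trp63, the p63 regulator of stratified epithelium, had 3 depth-supported sites in each population.

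The 35 WNT pathway genes, ligands, receptors, inhibitors and effectors of the signal that starts anagen, had 35 depth-supported sites in basal TACs and 56 in the hair germ, or 38.5% in basal TACs against 52.0% over all sites. With centred pileups the order turned, to 69 in basal TACs and 46 in the hair germ, or 60.0% against 72.9%. Their median relative ratio was -0.07 (-0.57 unshifted), and turned to 0.07 by fold enrichment. Of their shared sites 20.7% were at least 2-fold higher and 11.7% at least 2-fold lower, against 15.1% and 10.0% of all shared sites. Among ligands, Wnt7b had 0 depth-supported sites in basal TACs and 4 in the hair germ, while Wnt4 had a median of 0.77. Among receptors, Fzd10 had 4 in basal TACs and 1 in the hair germ. Among nuclear effectors, Tcf7l2 had 4 in basal TACs and 9 in the hair germ, and the corepressor Tle4 had a median of 1.15 with 1 in basal TACs and 4 in the hair germ.

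The 13 ligands and receptors of the matrix signal list, which overlaps the pathway lists, had 24 depth-supported sites in basal TACs and 13 in the hair germ, 7 of the 24 being those of Fgf5. Basal TACs held 64.9%, against 52.0% over all sites (81.1% against 72.9% with centred pileups). Their median was 0.05 (-0.45 unshifted), and -0.03 by fold enrichment. Edar, the ectodysplasin receptor of hair follicle formation, had 13 shared sites and a median of 0.76 that turned to -0.04 by fold enrichment. It had 4.74 in basal TACs and 1.54 in the hair germ at 43.2 kb inside, whereas at its start it had 2.17 in basal TACs and 4.89 in the hair germ.

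The 22 BMP pathway genes, which hold stem cells at rest in telogen and drive hair shaft differentiation in anagen, had 27 depth-supported sites in basal TACs and 20 in the hair germ, or 57.4% in basal TACs, near the 52.0% over all sites (46 in basal TACs and 14 in the hair germ with centred pileups, or 76.7% against 72.9%). They had a median of 0.06 (-0.44 unshifted; 0.06 by fold enrichment). The ligands parted. Bmp4 had 4.96 in basal TACs and 0.995 in the hair germ near its start. At 9.42 and -7.52 kb basal TACs had 1.88 and 1.59, where the hair germ had 0.995 and 1.54, and the median of the 3 sites was 1.42 (0.83 by fold enrichment). Bmp2 had a median of -1.10 (-0.26 by fold enrichment), with 2.37 in basal TACs and 7.69 in the hair germ at its tallest shared site. The type II receptor Bmpr2 had 5.74 in basal TACs and 10.9 in the hair germ at its start but basal TAC sites of 5.45 and 6.88 more than 116 kb downstream. The type I receptors Bmpr1b and Acvr1 each had 3 depth-supported sites in basal TACs, against 1 and 0 in the hair germ. Smad6, an inhibitor of the pathway, had 8 sites in basal TACs only, 0 in the hair germ only and a median of 0.69 (0.24 by fold enrichment), but only 1 of the 8 was depth-supported. Bambi, a decoy receptor, had 1.15 over 2 shared sites (0.34 by fold enrichment).

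The 15 TGF-beta genes had 25 depth-supported sites in basal TACs and 19 in the hair germ. The 12 hedgehog genes had 23 in basal TACs and 17 in the hair germ, and the 13 Notch genes had 19 in basal TACs and 11 in the hair germ. Basal TACs thus held 56.8% of the TGF-beta, 57.5% of the hedgehog and 63.3% of the Notch sites, against 52.0% over all sites. With centred pileups these shares were 78.3%, 74.4% and 85.3%, against 72.9%. Their median relative ratios were 0.02, 0.15 and 0.16 (-0.48, -0.35 and -0.34 unshifted), and the last pair turned to -0.05 and -0.07 by fold enrichment. Shh, the ligand made by one side of the matrix, had 4 sites in basal TACs only, of 0.552 to 1.91 FPM, and its shared sites had 2.92 and 0.616 in basal TACs, against 1.81 and 2.71 in the hair germ. Ptch1, its receptor and target, had a median of 0.85 that turned to -0.11 by fold enrichment. It had 5.61 in basal TACs and 2.62 in the hair germ at -77.9 kb, whereas at 1.35 kb from the start it had 4.61 in basal TACs and 7.96 in the hair germ. Gli2, the activator of hedgehog targets, had 8 depth-supported sites in basal TACs and 3 in the hair germ. At 162 kb Gli2 had 5.19 in basal TACs and 0.995 in the hair germ, but at -17.7 kb 2.85 in basal TACs and 13.2 in the hair germ.

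Among Notch genes, Jag2, a ligand, had 7.10 in basal TACs and 3.80 in the hair germ at its start. The receptor Notch2 had 6.85 in basal TACs and 14.0 in the hair germ at its start but 6.55 in basal TACs and 1.09 in the hair germ at 43.4 kb inside. Rbpj, the DNA-binding partner of Notch, had 0 depth-supported sites in basal TACs and 4 in the hair germ, and its median was -0.62. Of the TGF-beta mediators, Smad2 had 4 depth-supported sites in basal TACs and 0 in the hair germ, and Smad3 had 4 in basal TACs and 2 in the hair germ. No pathway had all of its members on one side.

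Cell cycle genes stood out little, although basal TACs divide and the resting hair germ hardly does. The 33 genes had 20 depth-supported sites in basal TACs and 16 in the hair germ, 55.6% against the 52.0% of all sites, and a median of 0.08 (-0.42 unshifted; 0.05 by fold enrichment). Of 25 genes with a start site in the table, 24 had a start-site peak in each population. Cdk6, a cyclin D kinase, stood apart with 5 depth-supported sites in basal TACs and 0 in the hair germ, the tallest with 8.76 FPM 144 kb inside the gene. At its start Cdk6 had 6.10 in basal TACs and 9.59 in the hair germ, a relative ratio of -0.15. Myc had a median of -0.43, with 3.80 in basal TACs and 21.5 in the hair germ at its farthest shared site upstream. Mycn had 3.57 in basal TACs and 8.87 in the hair germ at its start but 2.95 in basal TACs and 0.905 in the hair germ at 37.2 kb.

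The 23 adhesion and basement membrane genes had 32 depth-supported sites in basal TACs and 40 in the hair germ, or 44.4% in basal TACs against 52.0% over all sites. With centred pileups they had 56 in basal TACs and 30 in the hair germ, or 65.1% against 72.9%. Their median was -0.20 (-0.34 to -0.08), with -0.70 unshifted and 0.01 by fold enrichment. Lamb3, a laminin 332 chain, had 3 depth-supported sites in basal TACs and 0 in the hair germ, and Cdh1, E-cadherin, had 1 in basal TACs and 6 in the hair germ. The genes of the sort markers were checked against the gates. Cdh3 (P-cadherin), a basal TAC marker, had 9 shared sites with a median of -0.03. Cd34, absent from both gates, had 6 shared sites. Itgb1 had a median of 0.43 and Itga6 of -0.35, which turned to 0.10 by fold enrichment, and Ly6a (SCA1) had no site. In all, the sort marker genes had 4 depth-supported sites in basal TACs and 9 in the hair germ, or 30.8% in basal TACs against 52.0% over all sites. Cdh3 and Itga6 each had 0 in basal TACs and 2 in the hair germ.

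Start-site peaks at markers of other skin cells stood at 1 of 7 immune genes and 4 of 7 endothelial genes in each. Of 10 dermal genes they stood at 5 in basal TACs and 4 in the hair germ, and of 6 melanocyte genes at 4 in basal TACs and 2 in the hair germ. At least 1 site lay near 9 of 10 melanocyte, 9 of 10 endothelial, 13 of 13 dermal, 7 of 11 immune and 6 of 8 Merkel cell genes. Sites in 1 list numbered 28 in basal TACs and 5 in the hair germ for dermal genes, 12 in basal TACs and 3 in the hair germ for immune genes, and 25 in basal TACs and 13 in the hair germ for melanocyte genes. Endothelial genes had 37 in basal TACs and 16 in the hair germ, and Merkel cell genes 17 in basal TACs and 4 in the hair germ. Depth-supported among these one-list sites were 6 in basal TACs and 9 in the hair germ for melanocyte genes. For endothelial genes they were 7 in basal TACs and 10 in the hair germ. Dermal genes had 2 in basal TACs and 3 in the hair germ, immune genes 1 in basal TACs and 2 in the hair germ, and Merkel cell genes 2 in basal TACs and 4 in the hair germ. These few sites gave basal TAC shares of 33.3% to 41.2%, against 52.0% over all sites. With centred pileups basal TACs held more of the depth-supported sites in each of these 5 lists, as they did over all sites (72.9%). Their shares ran from 66.7% for endothelial genes, below that of all sites, to 83.3% for immune genes, with 5 in basal TACs and 1 in the hair germ. Among the defining markers, Tyr, Tie1, Cd3g, Itgam, Cd207, Krt20 and Pou4f3 had no site, whereas Pecam1 and Cdh5 (endothelium), Ptprc (leukocytes) and Dct and Tyrp1 (melanocytes) had shared sites. The sebaceous gland genes had 9 depth-supported sites in basal TACs and 3 in the hair germ and a median of 0.53 (0.03 unshifted; -0.24 by fold enrichment), among them 3 in basal TACs and 0 in the hair germ at Scd1, a fatty acid desaturase. The part of such cells in the counts above was not tested. The 14 widely expressed genes had 0 depth-supported sites in basal TACs and 9 in the hair germ, of which 6 belonged to Ywhaz. Basal TACs thus held 0%, against 52.0% over all sites, and the median was -0.22 (-0.72 unshifted).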

How the data were processed

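The peak lists were used as deposited. Per the labels' protocols, sorted cells were lysed, transposed with the Nextera enzyme at 37°C for 30 min, amplified by PCR and sequenced as 50 bp paired ends. The submitters' processing notes list the mm10 build, Picard, MACS2 and Bowtie2 2.2.9. Per the file headers, MACS 2.1.1.20160309 called peaks on 1 deduplicated, filtered file a population, from paired fragments, at a q-value threshold of 0.05 and without a control library. A shift of reads for the transposase is named in none of these sources. The deposited pileup (signal) is the authors' fragment coverage at the summit, the deposited fold enrichment is a ratio to local background, and the deposited −log10 p-value and −log10 q-value columns, whose names are damaged, were told apart by their place. Each score of a peak is the authors'.

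Peaks overlapping by at least 1 bp were merged into sites with Python 3.11.15, pandas 2.3.3 and numpy 2.4.6. A site took the highest pileup of each list, scaled to 1000000 fragments of that list. Sites went to the nearest gene within 100 kb of the RefSeq GRCm38.p6 gene table, which gives neither strand nor exons, so exon and intron were not separated. Start sites came from the RefSeq promoter table, which covers 17274 of 21631 protein-coding genes and none on chromosome 18. Intervals for shares are 95% Wilson intervals, those for ratios are exact and those for medians are order-statistic intervals. The merging and scaling were tested on simulated peaks. Named genes are the 10 at each end by median relative ratio (at least 5 shared sites) and by depth-supported counts, the 10 most extreme sites and start sites of each kind, and members of the gene lists. Examples within them, Igf1, Alpl and Pparg included, were picked after their values were seen. The members and lists were chosen with earlier results of these data known.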

Additional observations from a re-analysis of the deposited data

Results flagged for a closer look

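Chromosomes M and Y lie outside the comparison but carried peaks. On chromosome M the highest pileup was 27045 fragments in the basal TAC list (3 peaks) and 15548 in the hair germ list (5 peaks), above the limit of 3 that a count of 0 allows. On chromosome Y the highest pileup was 91 in basal TACs (12 peaks) and 45 in the hair germ (7 peaks), in samples of mixed sex. Scaled by depth, these were 877 fragments per 1000000 (FPM) in basal TACs and 1407 in the hair germ on chromosome M, and 2.95 in basal TACs and 4.07 in the hair germ on chromosome Y. With 1 list a population, no group had enough values for a check of single samples that stand apart.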

How the results depend on the processing

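No paired analysis was possible because each deposited list pools both samples of its population. Leaving out a replicate could not be run for the same reason. Requiring a −log10 q-value of 10 left 7675 sites in the hair germ only, 2633 depth-supported basal TAC sites (5412 in the hair germ), a median log2 ratio of -0.62, 889 shared sites at least 2-fold higher in basal TACs and 17.6% of sites near a gene end. Equal numbers of peaks gave 20297 sites in basal TACs only and a median of -0.43. A reciprocal overlap of 50% gave 23371 sites in the hair germ only, a median of -0.56 and 1609 higher sites. Centring on shared sites near gene ends turned the median to 0.15, with 16603 and 4760 depth-supported sites in basal TACs and in the hair germ, 7690 sites higher and 3246 lower. Centring on all shared sites, an alternative chosen after seeing the data, gave 14463 depth-supported basal TAC sites, 6262 higher and 4157 lower. Fold enrichment over local background gave a median of -0.043, 1601 higher and 1740 lower. A depth floor of 2 times the other list's median left 411 and 2222 depth-supported sites in basal TACs and in the hair germ, and 2 kb around gene ends held 18.6% of sites. With genes assigned within 20 kb, 33 named genes stayed within 1.5 times their value, 7 moved further (Thbs2, Dtnb, Smtn, Ranbp9, Calm2, Klhl6 and Itprid2, with values beside their results) and none reversed. The hair germ list then had 15 depth-supported sites in basal TACs and 11 in the hair germ. Without Ltbp1 the TGF-beta median was -0.02. The hair germ list's lower depth limits which of its weaker sites could be called.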

Other observations

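Peaks shared by the populations lay close together. The summits of the basal TAC and hair germ peaks of a shared site were a median of 55 bp apart, and 69.7% lay within 100 bp. Some one-list sites were near misses of a shared one: 2.41% of depth-supported basal TAC sites and 6.36% of depth-supported hair germ sites lay within 500 bp of a peak of the other list. The median relative log2 ratio by chromosome ran from -0.12 on X and -0.11 on 8 to 0.10 on 11. Of 8 Merkel cell genes, start-site peaks stood at 4 of the 6 with a start site in the table in each population, and the median of the list was -0.05. The 16 epidermal differentiation genes had 5 depth-supported sites in basal TACs and 7 in the hair germ, or 41.7% in basal TACs against 52.0% over all sites. Their median was -0.14 (-0.64 before the general shift is subtracted).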
